A study of Mus musculus with 7 samples.

Results

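The p53 target genes described here are Cdkn1a, Mdm2, Ccng1, Trp53inp1, Bbc3, Bax, Phlda3 and Zmat3, 8 of the 22556 genes in the expression table, taken by symbol. All 8 are autosomal and were measured in mouse embryonic stem (mES) cells treated with STM2457, an inhibitor of the m6A methyltransferase METTL3. The assay was ChrRNA-seq, the sequencing of chromatin-bound RNA, which is rich in newly made transcripts, and the values are RPM, the read pairs of a gene scaled to the total of read pairs on genes in its library. The cells of 3 libraries received DMSO and those of the other 4 received STM2457, which were 2 libraries at 10 µM and a single one at each of 20 µM and 30 µM. After 6 h of treatment doxycycline (Dox) was added for 24 h and the treatment went on. Every library, DMSO included, therefore had Xist induced. All came from C7H8, 1 clone of iXist-ChrX Cast XX mES cells with Cast and 129S X chromosomes, in which a TetOn promoter drives Xist from the Cast allele, and the line was kept on inactivated mouse fibroblast feeders. The effect of the compound on these 8 genes bears on whether the treated cells showed the transcription that follows DNA damage or toxicity.

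The transcription factor p53 is held low in unstressed cells because MDM2, the product of one of its own targets, marks it for destruction. After DNA damage and other stresses p53 accumulates and switches on genes that stop the cell cycle, start apoptosis, limit growth signalling or repair DNA, and MDM2 and PPM1D among its targets bring it down again. A rise of Cdkn1a, Mdm2 and Ccng1 is a common readout of this pathway.

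Depth ran from 9300549 read pairs in the 20 µM library to 28030180 in DMSO replicate 2, with 20915215 or more in each library other than the 20 µM one. Autosomal expression separated the libraries in a way that dose does not describe. Principal component 1 over 13095 autosomal genes, the members left out, accounted for 78.8% of the variance. Set 1 by its sign was both 10 µM libraries with DMSO replicates 1 and 2, and set 2 was the high-dose libraries (20 µM and 30 µM) with DMSO replicate 3. No 20 µM or 30 µM library is in set 1, so at those doses only DMSO replicate 3 is a control of the same set, and values are given with and without it. Of 10 mES cell markers 9 had a mean of 1 RPM or more, and Sox2, which lies within Sox2ot on the same strand, was listed at 0. They summed to between 2057 and 2278 RPM in set 1 and between 1757 and 1960 RPM in set 2, and their part in the members' levels was not tested. The 12 feeder fibroblast markers summed to between 21.5 and 28.5 RPM, most of it Fbn1, and the other 11 to between 4.85 and 8.28 RPM, with Lum at 0 in 6 of the 7 libraries.

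p53 binds a pair of 10-base half-sites. RefSeq promoters of 300 bases around the gene start (GRCm38.p6) were given for 6 of the 8 genes, and the closest match to the p53 consensus, on both strands since it reads the same on each, was found by counting mismatches over pairs of half-sites no more than 3 bases apart with the fixed C and G kept. Cdkn1a and Bbc3 had more than 1 promoter, and the closest match over a gene's promoters is given, whereas the shares are per promoter. Cdkn1a and Ccng1 each held a pair with 1 mismatch, which 0.219% of the 32851 promoters in the table had, and Bax held a pair with 2, which 1.35% had. At the other Cdkn1a promoter, which lies downstream, the best pair had 6 mismatches. These windows are shown because they carry the closest matches among the members, with the pair of half-sites in capitals. The Cdkn1a window is chr17:29090908-29090967 on the plus strand, the Ccng1 window chr11:40755442-40755501 on the minus strand and the Bax window chr7:45467059-45467119 on the minus strand.
Cdkn1a: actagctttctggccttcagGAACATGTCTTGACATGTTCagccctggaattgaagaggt
Ccng1: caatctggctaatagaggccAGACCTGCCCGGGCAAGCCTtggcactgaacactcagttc
Bax: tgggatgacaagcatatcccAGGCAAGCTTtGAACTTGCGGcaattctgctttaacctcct
The best pair had 3 mismatches at Bbc3, 4 at Mdm2 and 5 at Phlda3, and 5.76% of all promoters had 3 or fewer. Mdm2 held 1 perfect half-site in its window, as did 8.36% of all promoters with at least 1. A match is a description of the letters and no match says only that they are not in this window.

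All 8 genes had RNA in DMSO, at very different levels. In bulk libraries fewer expressing cells and less RNA per cell cannot be told apart. Per kb of gene, Ccng1 was highest with 20.5 RPM per kb, followed by Trp53inp1 with 12.2, Mdm2 with 8.78, Bax with 4.81, Zmat3 with 3.38, Cdkn1a with 2.16, Phlda3 with 1.81 and Bbc3 with 0.261. The ranges over the 3 DMSO libraries overlapped between Trp53inp1 and Mdm2, between Bax and Zmat3 and between Cdkn1a and Phlda3, so these neighbours were not separated. Bbc3, which encodes the apoptosis inducer PUMA, was counted with only 13 to 82 read pairs per library.

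**Figure D1:**
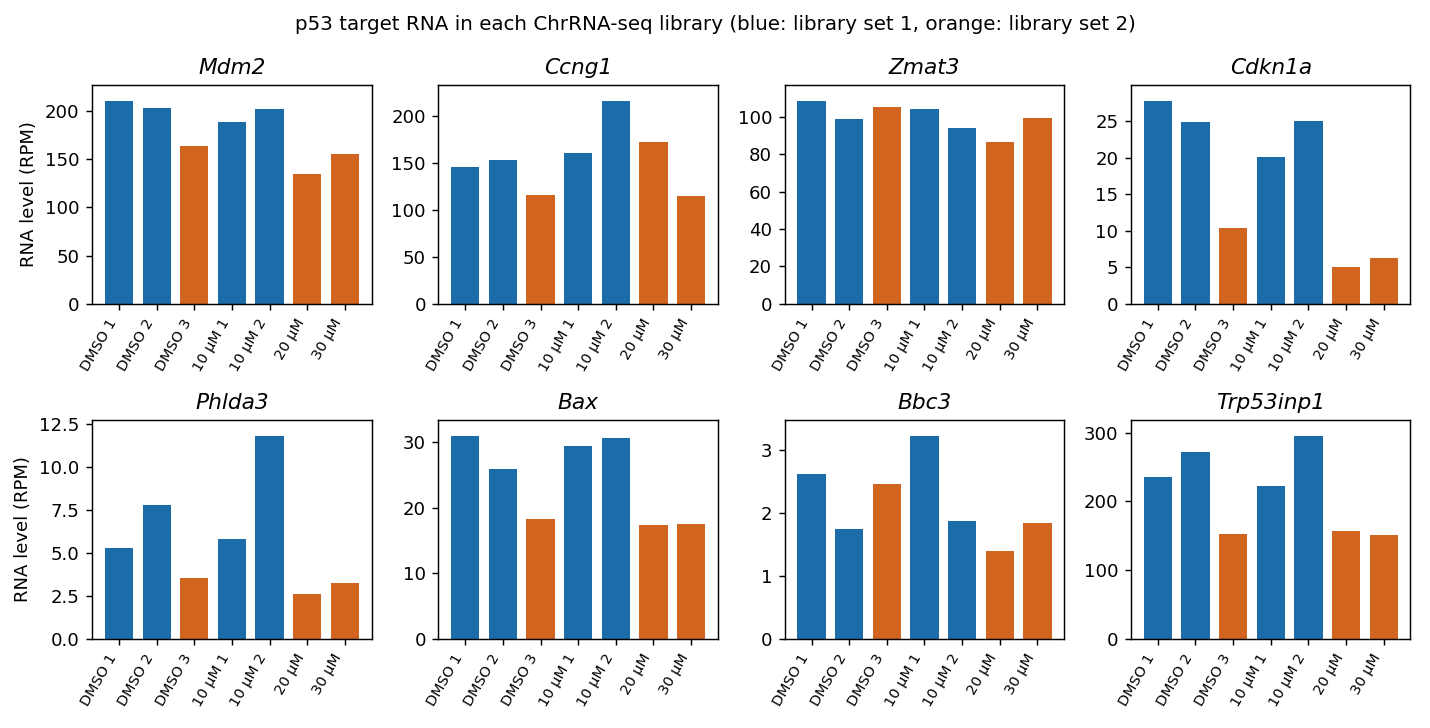
RNA level (RPM, linear axis from 0) of each p53 target in the 7 libraries, 1 bar per library and no error bars. Blue bars are library set 1 and orange bars set 2. For Cdkn1a, Mdm2, Trp53inp1, Bax and Phlda3 every orange bar is below every blue bar, and the orange DMSO replicate 3 sits with the 20 µM and 30 µM bars.

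The first comparison asked whether 10 µM STM2457, the only dose with more than 1 library, raised the p53 targets. None of the 8 passed the test, and the compound gave no called change at any of 13599 genes (0%, limma on log2(RPM + 1), Benjamini-Hochberg adjusted p under 0.05). At an unadjusted p under 0.05 there were 212 genes, 1.56% of those tested and none of them a member, and edgeR called 0 and DESeq2 1 gene. Of the members, 7 had an effect above 0 and 1 below, with a median log2 difference of 0.23 against 0.09 for all genes tested. DMSO replicate 3 was low for most members, and without it 5 effects were above 0 and 3 below, with a median of 0.05 against 0.03 for all genes.

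Cdkn1a encodes p21, the inhibitor of cyclin-dependent kinases that carries out the p53 cell cycle arrest. Its RNA level was 27.7, 24.9 and 10.3 RPM in DMSO replicates 1, 2 and 3 and 20.1 and 25.0 RPM at 10 µM. The 10 µM values lie between the highest and lowest DMSO values. The log2 difference was 0.20 ± 0.42 (SE, adjusted p = 0.879, limma), with a 95% interval from a 0.572-fold to a 2.32-fold level.

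Mdm2, the ubiquitin ligase that removes p53, had 210, 203 and 163 RPM in DMSO and 188 and 202 RPM at 10 µM. The log2 difference was 0.03 ± 0.15 (SE, adjusted p = 0.951, limma), with a 95% interval from 0.790-fold to 1.32-fold. The groups overlapped.

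Ccng1, which encodes cyclin G1, was the member that came nearest to a change. Its levels were 146, 153 and 116 RPM in DMSO and 160 and 215 RPM at 10 µM, so both treated libraries were above every control. It was the only member with that pattern, which 16.6% of all genes tested had. The log2 difference was 0.44 ± 0.19 (SE, adjusted p = 0.811, limma), with a 95% interval from 0.982-fold to 1.86-fold.

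Bax and Bbc3 encode proteins that start apoptosis at mitochondria, and Trp53inp1 and Phlda3 encode a p53 cofactor and an inhibitor of AKT signalling. Bax had 31.0, 25.9 and 18.3 RPM in DMSO and 29.4 and 30.7 RPM at 10 µM, and Bbc3 had 2.63, 1.75 and 2.47 RPM and then 3.23 and 1.87 RPM. Trp53inp1 had 235, 272 and 152 RPM in DMSO and 222 and 295 RPM at 10 µM. Each of these groups overlapped.

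Phlda3 had 5.26, 7.78 and 3.54 RPM in DMSO and 5.80 and 11.8 RPM at 10 µM, with the largest log2 difference of the members, 0.57 ± 0.40 (SE, adjusted p = 0.811, limma). Its 95% interval ran from 0.764-fold to 2.87-fold. Zmat3, which encodes an RNA-binding zinc finger protein, had 109, 98.8 and 106 RPM in DMSO and 105 and 94.1 RPM at 10 µM, the only log2 difference below 0 at -0.07 ± 0.13 (SE, adjusted p = 0.869, limma).

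**Figure D2:**
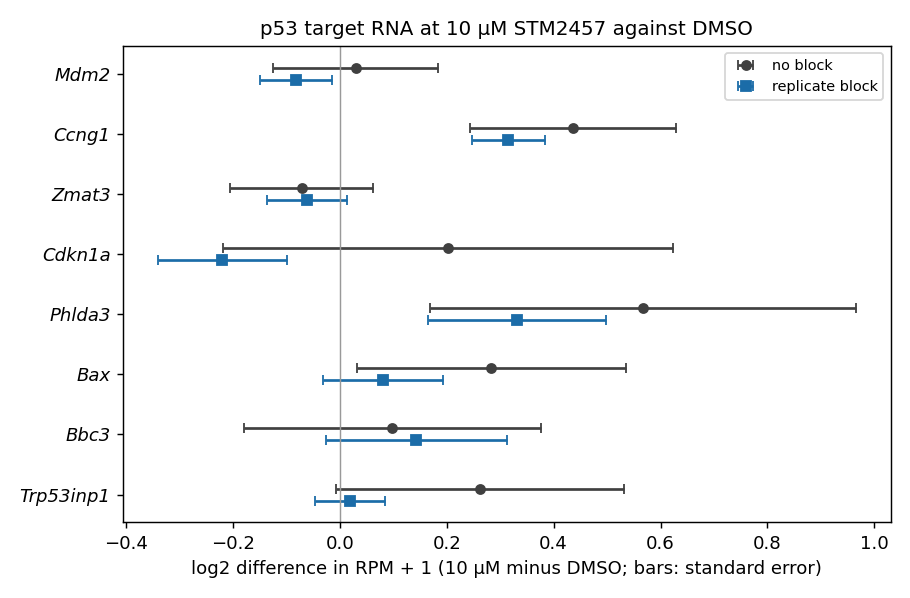
Log2 difference in RPM + 1 (10 µM minus DMSO) of each member, with standard errors, without a replicate block over 5 libraries (grey circles) and with the block over 4 libraries (blue squares). Ccng1 is the only member called with the block, at 0.32, and Cdkn1a and Mdm2 move to the other side of 0.

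The DMSO and 10 µM libraries of one number came from the same batch of cells, and with that number as a block the counts changed. DMSO replicate 3 has no partner and does not enter this fit. limma then called 1020 genes (7.5%), 561 higher (4.13%) and 459 lower (3.38%), and 1 of the 8 members, Ccng1, was higher by 0.32 ± 0.07 on the log2 scale (SE, adjusted p = 0.000301, limma). edgeR with the block called 837 genes (6.15%), Ccng1 among them (adjusted p = 0.0329, edgeR). Only 1 degree of freedom per gene was left, and limma took the spread from genes of like level. Within its own pairs Ccng1 was higher by 0.14 in pair 1 and by 0.49 in pair 2. In pair 2 the 3100 genes that span under 10 kb, Ccng1 among them, had a median of 0.24 with 86.4% above 0, and in pair 1 a median of 0.01. The part of gene span in the Ccng1 call was not tested.

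The remaining members did not pass the test with the block. Cdkn1a was lower by 0.44 in pair 1 and level in pair 2 (0.01), with a log2 difference of -0.22 ± 0.12 (SE, adjusted p = 0.288, limma) and a 95% interval from 0.730-fold to 1.01-fold. Mdm2 was at -0.08 ± 0.07 (SE, adjusted p = 0.529, limma), with an upper bound of 1.03-fold. Phlda3 was above its partner in both pairs, by 0.12 and 0.54, and missed the threshold (adjusted p = 0.236, limma). It too spans under 10 kb, the class with a median of 0.24 in pair 2. Treated libraries were above their partners in both pairs for 3 of the 8 members, Ccng1, Bbc3 and Phlda3, as for 36.3% of all genes, and below in both for 2, Mdm2 and Zmat3, as for 26.9%.

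At 20 µM and 30 µM there is 1 library each, so their levels are given with no test and with exact Poisson 95% intervals, which cover counting error only. Cdkn1a had 5.05 RPM (interval 3.71 to 6.72) at 20 µM and 6.33 RPM (5.35 to 7.44) at 30 µM. Both were below the 10.3 RPM (9.02 to 11.8) of DMSO replicate 3, at 0.489 and 0.613 times its level. The first 2 DMSO libraries had more than 24 RPM, so DMSO replicate 3 itself was at 0.373 times the level of replicate 1.

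Mdm2 had 134 RPM at 20 µM and 155 RPM at 30 µM, against 163 RPM in DMSO replicate 3. Bax had 17.3 and 17.5 RPM against 18.3 RPM, and Phlda3 2.58 and 3.25 RPM against 3.54 RPM. For these 4 genes, Cdkn1a included, both high-dose libraries were below every DMSO library, a pattern that 21.7% of all genes tested had, and no member had both above every DMSO library (11.8% of genes). Against DMSO replicate 3 alone, 6 members had both high-dose libraries lower (34.1% of genes) and 0 had both higher (29.2%). For Bax, Bbc3 and Phlda3 the counting intervals of the high-dose libraries overlapped that of DMSO replicate 3, as did those of Mdm2 and Zmat3 at 30 µM. Among the 6 members only the Cdkn1a intervals were clear of it at both doses.

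Ccng1 had 172 RPM at 20 µM, above all 3 controls, and 115 RPM at 30 µM, level with the 116 RPM of DMSO replicate 3. Trp53inp1 had 157 and 151 RPM against 152 RPM in that control. Zmat3 had 86.7 and 99.6 RPM against 106 RPM. Bbc3 had 1.40 and 1.84 RPM, where the 20 µM value rests on 13 read pairs (interval 0.744 to 2.39 RPM).

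**Figure D3:**
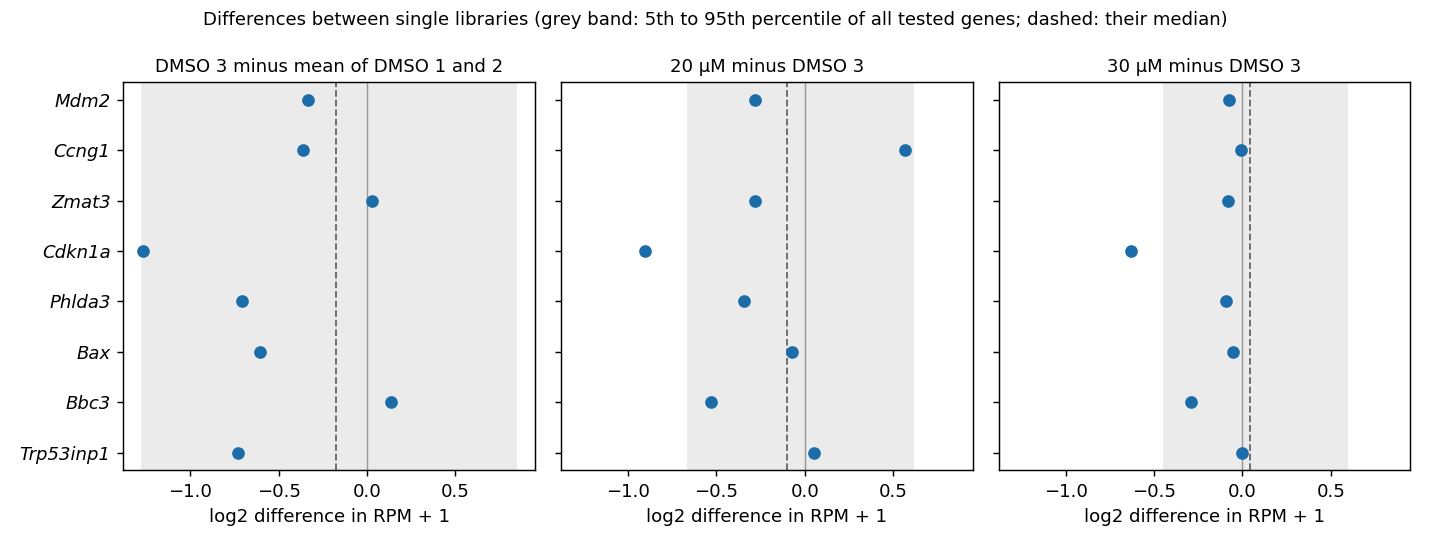
Log2 difference in RPM + 1 of each member between single libraries (points, no replicates), with the 5th to 95th percentile of the 13599 genes tested as a grey band and their median dashed. In the 20 µM and 30 µM panels Cdkn1a lies outside the band, at -0.91 and -0.63 against DMSO replicate 3, and the other members lie inside it.

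The members were then set side by side by library set, which was defined without them. The other autosomal genes tested, those of the other lists included, did enter that definition, so the shares of all genes include genes that defined the sets. All 3 libraries of set 2 were below all 4 of set 1 for 5 of the 8 members, Cdkn1a, Mdm2, Trp53inp1, Bax and Phlda3, against 39.8% of all genes, and above for 0 members, against 18.7%. DMSO replicate 3 was below the other DMSO libraries for 6 members (55.5% of genes). DMSO replicate 3 differed from the mean of DMSO replicates 1 and 2 by a median of -0.49 over the members and -0.18 over all genes tested. Over genes that span under 10 kb, as Cdkn1a, Ccng1, Bbc3, Bax and Phlda3 do, that median was -0.50, and over genes of more than 50 kb it was 0.04. The part of gene length or RNA fraction in the members' levels was not tested.

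The dose series asked whether the members followed dose over all 7 libraries. No member and no gene passed the test in limma (0%), in which 1174 genes (8.63%) had an unadjusted p under 0.05. edgeR called 0 genes and DESeq2 129 (0.949%), with no member among them, although DESeq2 gave no adjusted p for Bbc3. All 8 slopes were below 0, or 7 of 8 with TMM factors, where that of Ccng1 was above 0, with a median of -0.16 per 10 µM on the log2 scale against -0.04 for all genes. Cdkn1a had the steepest, -0.59 ± 0.21 (SE, adjusted p = 0.508, limma), and it was the only member with an unadjusted p under 0.05.

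Without DMSO replicate 3 limma called 2485 genes (18.3%), among them Cdkn1a with a slope of -0.76 ± 0.15 (SE, adjusted p = 0.0271, limma) and Trp53inp1 with -0.28 ± 0.08 (SE, adjusted p = 0.0424, limma). In that fit both DMSO libraries are of set 1 and both high doses of set 2. With the set as a term in the same fit 0 genes were called (534 at an unadjusted p under 0.05), and the slopes were -0.05 ± 0.17 for Cdkn1a (SE, adjusted p = 0.984, limma) and -0.0059 ± 0.12 for Trp53inp1 (SE, adjusted p = 0.998, limma). With the set as a term and all libraries, 27 genes were called (0.199%), none of them a member. Cdkn1a then had -0.24 ± 0.09 (SE, adjusted p = 0.340, limma). The slopes of Ccng1, Trp53inp1 and Phlda3 were above 0 in this fit, at 0.09, 0.01 and 0.02, and those of the other members were below 0.

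**Figure D4:**
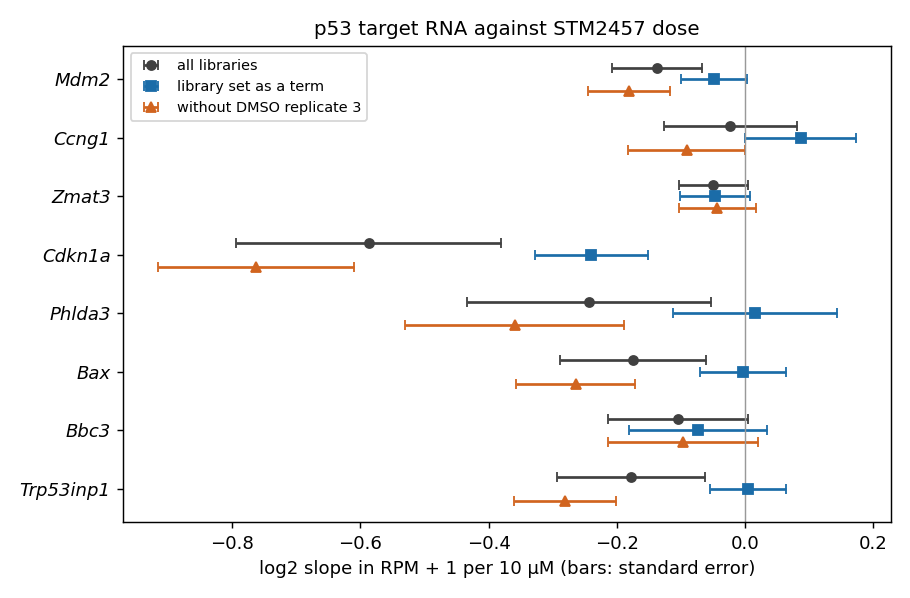
Slope of log2(RPM + 1) per 10 µM for each member with its standard error, over all libraries (grey circles), with library set as a term (blue squares) and without DMSO replicate 3 (orange triangles). Cdkn1a is below 0 in the 3 fits drawn, from -0.76 to -0.24 (-0.05 in the fit not drawn, without DMSO replicate 3 and with the set), and the blue squares of the other members lie between -0.07 and 0.09.

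The regulators of p53 were measured next to its targets. Trp53, the gene of p53 itself, had 92.9, 84.8 and 84.3 RPM in DMSO, 68.2 and 81.1 RPM at 10 µM, 63.5 RPM at 20 µM and 73.8 RPM at 30 µM. All 4 treated libraries were below all 3 controls, as for 1.87% of all genes and for 0 members. The closest were 81.1 RPM in 10 µM replicate 2 and 84.3 RPM in DMSO replicate 3. Among the other listed genes Mdm4, Ei24, Eda2r, Trp73 and Bcl2l11, chosen after their values were seen, had the pattern too. The log2 difference of Trp53 at 10 µM was -0.23 ± 0.15 (SE, adjusted p = 0.811, limma). With the block it was called lower, at -0.25 ± 0.08 (SE, adjusted p = 0.0271, limma, and 0.0471 with edgeR). Within its pairs the difference was -0.44 in pair 1 and -0.06 in pair 2.

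Mdm4, which encodes a partner of MDM2 that restrains p53, was chosen after its values were seen. It had 805, 792 and 779 RPM in DMSO, 661 and 629 RPM at 10 µM, 475 RPM at 20 µM and 571 RPM at 30 µM. With the block it was called lower at 10 µM by limma, at -0.31 ± 0.06 (SE, adjusted p = 9.11e-05, limma), and not by edgeR (adjusted p = 0.100, edgeR). Of the 15 regulators, 0 passed without the block. Their effects at 10 µM were above 0 for 7 and below for 8, a median of -0.06 against 0.09 for all genes. Without DMSO replicate 3 the counts were 6 and 9 and the median -0.05 against 0.03. With the block limma called 1 higher, Atr, and 3 lower, Trp53, Mdm4 and Chek2, against 4.13% and 3.38% of all genes. Of these edgeR called Trp53, against 6.15% of all genes called. Chek2 was chosen after its values were seen. The largest dose slopes above 0 were those of Setd8 and Ep300, at 0.12 and 0.08, and the largest below 0 those of Atr and Usp7, at -0.34 and -0.26, and none passed.

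Ppm1d, the p53-induced phosphatase that switches the damage response off, had 42.2, 42.8 and 59.0 RPM in DMSO and 28.7 and 35.5 RPM at 10 µM. The groups did not overlap, and both treated libraries were below every control as for 8.74% of all genes. With the block it was called lower, at -0.40 ± 0.10 (SE, adjusted p = 0.00344, limma, and 0.00137 with edgeR). The 41.2 RPM at 20 µM and 49.7 RPM at 30 µM were below the 59.0 RPM of DMSO replicate 3.

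Of 35 other p53 targets tested, 1 of which, Eda2r, is X-linked and so on the chromosome that Xist acts on, 22 had an effect above 0 at 10 µM and 13 below, with a median log2 difference of 0.16 against 0.09 for all genes, and 0 passed. Without DMSO replicate 3 the counts were 20 and 15 and the median 0.05 against 0.03. With the block 0 were higher and 2 lower, Ppm1d and Ei24, against 4.13% and 3.38% of all genes. Ei24, named after its values were seen, had -0.31 ± 0.08 (SE, adjusted p = 0.00500, limma). Their dose slopes were above 0 for 11 and below for 24, a median of -0.11, and with the library set as a term above 0 for 19 and below for 16, a median of 0.02. Plk3 and Rrm2b had the largest slopes above 0, at 0.18 and 0.10, and Btg2 and Ddit4 the largest below, at -0.46 and -0.37, none of which passed. Btg2, an antiproliferative gene, shows the sets plainly, with 17.7 and 23.8 RPM in DMSO replicates 1 and 2, 4.75 RPM in replicate 3 and 5.16 and 4.88 RPM at 20 µM and 30 µM. Trp53cor1, the noncoding RNA gene beside Cdkn1a, had 8.03, 8.42 and 7.59 RPM in DMSO and 6.27 and 9.63 RPM at 10 µM, and did not pass in either comparison.

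Genes that act downstream of the members were compared the same way. The 16 cell cycle genes that p21 represses had 12 effects above 0 and 4 below at 10 µM, a median of 0.09, and 0 passed. With TMM factors 8 were above 0 and 8 below, and without DMSO replicate 3 there were 7 above and 9 below, with a median of -0.04. With the block limma called 2 lower, against 3.38% of all genes, Cdc25c and Kif23, chosen after their values were seen. The 16 dose slopes were above 0 for 2, Ccna2 and Cenpf at 0.07 and 0.02, and below for 14. Their median was -0.12 against -0.04 for all genes, and Ccnb1 and Aurkb had the largest below 0, at -0.37 and -0.28. With the library set as a term 5 were above 0 and 11 below, a median of -0.02 against 0.01. Of the 12 Bcl-2 family genes 0 passed without the block. With the block 1 was lower, against 3.38% of all genes, Bcl2l11, chosen after its values were seen. Bcl2l1, which encodes the survival protein BCL-XL, had 103, 89.3 and 149 RPM in DMSO replicates 1, 2 and 3. It had 101 and 94.2 RPM at 10 µM, 149 RPM at 20 µM and 200 RPM at 30 µM, with a dose slope of 0.27. That slope includes the difference between the sets. Bak1, which encodes a protein that acts like BAX, had 7.08, 4.35 and 5.73 RPM in DMSO and 7.14 and 7.41 RPM at 10 µM. It had 12.0 and 8.69 RPM at 20 µM and 30 µM, with a slope of 0.26. Every treated library was thus above every control for Bak1, the closest being 7.14 RPM in 10 µM replicate 1 and 7.08 RPM in DMSO replicate 1. The share of all genes with that upward pattern was not counted. Bmf and Bid, which also promote apoptosis, had the largest slopes below 0, at -0.55 and -0.23. None of these 4 slopes passed. Among 6 genes of CDK inhibitors 2 were above the filter and 0 passed. Cdkn1b had 28.8, 25.4 and 11.9 RPM in DMSO, 22.8 and 28.0 RPM at 10 µM, and 9.35 and 7.87 RPM at 20 µM and 30 µM.

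Over the 7 libraries the genes with the pattern most like Cdkn1a were Slc4a8, 9430015G10Rik and Ndst2, with Pearson's r of log2(RPM + 1) of 0.999, 0.998 and 0.997. Such a likeness was common, since 2336 of 10731 genes had an r above 0.9 with Cdkn1a and 2218 with Mdm2, for which H2afy, Akap1 and Pla2g16 came first. Among the members Cdkn1a went with Mdm2 (r = 0.984) and Bax (r = 0.945), and less with Zmat3 (r = 0.485) and Ccng1 (r = 0.407). The points share their libraries, depth and sets, and Cdkn1a itself had an r of 0.962 with principal component 1 of the other genes.

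GGACT, one spelling of the sequence that METTL3 methylates, was counted on the sense strand of the longest protein-coding transcript of each gene (GENCODE M21). Each member had at least 1, as 87.9% of 21801 genes did, from 0.370 per kb in Trp53inp1 to 2.76 per kb in Bbc3. The median was 1.27 per kb over the members and 1.01 per kb over all genes. Bax, with 2.73 per kb, had a higher density than 96.0% of genes, and Cdkn1a, with 1.92 per kb, than 86.5%. No m6A was measured in these libraries.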

How the data were processed

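ChrRNA-seq values of 7 libraries were used. Per the study's methods the authors discarded rRNA reads with bowtie2, aligned the rest with STAR to the N-masked mm10 genome, kept unique alignments and counted read pairs per gene with their strand. The deposited values are RPM, scaled to the total on genes. Coordinates are mm10, the build of GENCODE M21 (GRCm38). The deposited allelic ratio table holds X-linked genes only and was not used. The table had 0 columns of other samples.

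The members, gene lists and library sets were chosen with earlier results of these data known. Read pairs were recovered from the RPM step, with 100% of values whole within 0.05 of a read pair. The 13599 genes whose mean reached 1 RPM were tested in R 4.3.3 with limma 3.58.1 (lmFit, trended eBayes). The scale was log2(RPM + 1), on which changes of low genes come out too small. edgeR 4.0.16 and DESeq2 1.42.0 were run on the recovered read pairs. Effects are 10 µM minus DMSO, or slopes per 10 µM over all libraries. Simulated data with known changes were used to check the direction and size that the fits return. A set or replicate difference was simulated only for fits with that term, so the other fits were not tried with one. For RNA-seq the study's reporting summary describes independent repeats of a single clone, or several clones, without naming these libraries. Fits without the block have p-values that measure the spread between these libraries. With the block limma gave a gene's own spread no weight, so those p-values rest on the spread of genes of like level.

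The study's reporting summary states that the wells within each replicate shared 1 batch of cells, which pairs DMSO and 10 µM replicates 1 and 2. Deviations of same-numbered libraries from their group means had an r of 0.621 over 13599 genes.

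Besides the members, genes were named by rule, other than those marked in the text as chosen after their values were seen, as up to 2 per list with the largest dose slopes each way (mean of 5 RPM or more), Trp53, Ppm1d, Trp53cor1 and the 3 genes most like Cdkn1a and Mdm2. Zmat3 overlaps 4930429B21Rik on the other strand, which stranded counting separates. Trp53inp1 and Zmat3 had no promoter entry. Alternatives were another pseudocount, filters, TMM factors, a total without 5 abundant genes, eBayes without trend, leaving out each library, the replicate block and the library set. Figures used Python 3.11.15 and matplotlib 3.10.9.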

Additional observations from a re-analysis of the deposited data

How the results depend on the processing

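The count of genes called at 10 µM was 0 and became 1 with DESeq2, 1020 with the replicate block and 837 with edgeR and the block, and 0 to 1 when 1 library was left out. The count over dose was 0 and became 129 with DESeq2, 27 with the library set as a term, 73 with edgeR and the set, 68 with TMM factors and the set, and 0 to 2485 when 1 replicate was left out, the highest without DMSO replicate 3. Members with both high-dose libraries below every DMSO library numbered 3 to 6 under other scalings and with each control left out. Fits with edgeR and a block or set, with TMM and the set, without DMSO replicate 3 with the set, and these high-dose alternatives were added after seeing the data.

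Signs turned for members whose effects were not called. At 10 µM Cdkn1a was -0.22 with the block and -0.25 with edgeR and the block. Mdm2 was -0.068 with DESeq2, -0.061 with edgeR, -0.082 with the block, -0.10 with edgeR and the block and -0.063 with TMM factors. Trp53inp1 was -0.0021 with edgeR and the block. With 1 library left out at 10 µM, Cdkn1a ranged from -0.22 (without DMSO replicate 3) to 0.45, Mdm2 from -0.082 to 0.099, Bbc3 from -0.18 to 0.38 and Zmat3 from -0.15 to 0.0043. Over dose the Ccng1 slope was 0.037 with DESeq2, 0.044 with edgeR, 0.015 with TMM factors, 0.087 with the set, 0.097 with edgeR and the set, 0.072 with TMM and the set and 0.22 without the 30 µM library. Trp53inp1 was 0.0055 with the set, and Phlda3 0.016 with the set, 0.027 with edgeR and the set and 0.0029 with TMM and the set. Without DMSO replicate 3 and with the set, Cdkn1a kept its sign at -0.054 and Mdm2 was 0.015, Ccng1 0.018, Bbc3 0.18, Bax 0.061, Phlda3 0.30 and Zmat3 0.025. The causes were not tested.

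Ccng1 was the only member whose call the block changed. At 20 µM, 13 read pairs on Bbc3 and 24 on Phlda3 limit what can be seen.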
